A study of Mus musculus with 30 samples.

Results

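The circadian clock and its first output genes were followed in the RNA-seq data of myotubularin-deficient mice, as 10 genes chosen by symbol among the 36103 genes of the count table: Arntl, Nr1d1, Nr1d2, Dbp, Tef, Hlf, Per2, Per3, Cry1 and Ciart. RNA was sequenced from gastrocnemius, diaphragm, liver and heart, both of Mtm1-/y mice and of WT littermates. All the mice were 5 weeks old and of the 129Pas background, and the Mtm1-/y mice are hemizygous males that lack myotubularin, a phosphoinositide phosphatase encoded on the X chromosome. The gene is deleted in the whole animal and not in 1 tissue. The data hold 4 WT and 4 Mtm1-/y libraries of gastrocnemius, 4 and 3 of diaphragm, 4 and 4 of heart, and 3 and 4 of liver. The mice were kept under cycles of 12 h of light and dark. The clock time of dissection is not given in the sources used here, nor do the labels say which libraries come from the same mouse. The p-values below therefore measure the spread between these libraries.

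In nearly every mammalian cell the clock is a loop of transcription factors. ARNTL (BMAL1) and CLOCK bind E-boxes and switch on the Per and Cry genes, whose proteins feed back on them, and the Nr1d1 and Nr1d2 genes, whose REV-ERB proteins repress Arntl. The same E-boxes drive Dbp, Tef and Hlf, the PAR bZIP factors, which pass the rhythm on to metabolic genes through D-boxes. Arntl RNA is known to peak in the opposite phase to Dbp, Nr1d1 and the Per genes, and Cry1 RNA to lag behind the Per genes. A pair of genes such as Dbp and Arntl thus moves strongly and in opposite directions over a day, in muscle and heart as in liver.

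The members Ciart, Per3 and Arntl carry matches to elements of this loop in the stretch next to a transcription start. Binding at these matches was not measured. The sequences are shown because elements of this kind belong to the loop described above. They are RefSeq promoter sequences of GRCm38.p6, printed 5′ to 3′ on the strand of the gene, with the motif in capitals. The Ciart line covers chr3:95882229-95882478 (minus strand) with 3 E-boxes, the Per3 line chr4:151044666-151044915 (minus strand) with 2 D-boxes, and the Arntl line chr7:113207527-113207556 (plus strand) with 1 REV-ERB/ROR element.
Ciart: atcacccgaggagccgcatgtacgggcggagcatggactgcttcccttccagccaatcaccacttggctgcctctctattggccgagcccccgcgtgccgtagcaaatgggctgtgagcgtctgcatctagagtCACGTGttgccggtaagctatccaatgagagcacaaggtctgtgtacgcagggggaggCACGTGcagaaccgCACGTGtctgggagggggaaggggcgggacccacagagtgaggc
Per3: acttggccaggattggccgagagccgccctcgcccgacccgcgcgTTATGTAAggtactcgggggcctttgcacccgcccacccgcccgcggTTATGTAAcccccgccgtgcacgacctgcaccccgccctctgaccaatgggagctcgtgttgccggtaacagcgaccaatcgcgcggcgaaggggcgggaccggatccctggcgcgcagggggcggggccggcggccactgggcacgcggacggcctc
Arntl: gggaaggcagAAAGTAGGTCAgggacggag

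Promoter windows were found for 9 of the 10 members, 11 windows in all, each from 250 bases before to 50 bases after the start. The E-box CACGTG was in 4 of the 11 windows (Ciart, Cry1 and both windows of Tef) and in 7.15% of 32851 mouse promoter windows of the same length. The D-box, written here as TTATGTAA or TTACGTAA, was in the Per3 window alone among the 11, and in 1.06% of all windows. The REV-ERB/ROR element was in 1 of the 2 Arntl windows and in 0.384% of all windows. Both strands were searched, and the 3 motifs do not overlap each other where they were found. A match is only a match of letters, and its absence from the other windows says nothing of sites farther away.

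In mm10 coordinates, Arntl spans chr7:113207465-113314126 and Dbp chr7:45705088-45710203. Nr1d1 spans chr11:98767932-98775333, Hlf chr11:90336536-90390895 and Nr1d2 chr14:18204054-18239127. Tef spans chr15:81802421-81826863 and Per2 chr1:91415982-91459324. Per3 spans chr4:151003652-151044665, Cry1 chr10:85131700-85185064 and Ciart chr3:95878503-95882251. All of them are protein-coding. Exons of 4 members share bases with a gene on the other strand: 539 bases of Dbp with Sphk2, 263 of Nr1d1 with Thra, 193 of Tef with Gm17597 and 33 of Arntl with Gm45355. The library kit keeps the strand, but the strand setting of the counting is not stated. Only unambiguous reads were kept. If strand was ignored, reads over the shared bases were dropped, and the counts of these 4 members leave them out.

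Depth was 24873817 to 44289343 counts per library, and the lowest count of any member in any library was 13 reads. Levels are given in CPM, the counts relative to the library total, after TMM scaling of all 30 libraries. Mtm1 itself was at 20.4 to 22.1 CPM in WT and 4.39 to 5.90 CPM in Mtm1-/y gastrocnemius, and the genotypes did not overlap in the other 3 tissues either, with 15.5 CPM the lowest WT and 8.08 CPM the highest Mtm1-/y library. The tissue labels matched their markers, with the skeletal actin Acta1 at 18902 CPM or more in both skeletal muscles, the cardiac myosin Myh6 at 17616 CPM or more in the heart and albumin (Alb) at 110099 CPM or more in the liver. Alb was also at 252 to 28581 CPM in the 7 diaphragm libraries.

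The members could lie far apart between libraries of the same tissue and genotype, though not evenly over the groups. This was clearest in Dbp, a PAR bZIP factor and a direct output of the clock. In gastrocnemius it was at 48.3, 62.4, 41.5 and 35.3 CPM in the 4 WT libraries and at 73.5, 14.1, 35.98 and 153 CPM in the 4 Mtm1-/y libraries. The WT libraries lay close together, whereas Mtm1-/y 4 was the highest and Mtm1-/y 2 the lowest of all 8. In the heart Dbp was at 34.2, 22.4, 14.7 and 122 CPM in WT and at 32.97, 46.8, 5.81 and 8.61 CPM in Mtm1-/y. Here WT 4 stood above the other 7 libraries.

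In the liver Dbp was at 14.02, 3.32 and 2.48 CPM in WT and at 5.49, 137, 1.06 and 2.80 CPM in Mtm1-/y. Mtm1-/y liver 2 was thus far above the other 6, which spanned 1.06 to 14.02 CPM. In the diaphragm Dbp was at 27.2, 14.8, 14.7 and 9.68 CPM in WT and at 3.74, 7.93 and 11.1 CPM in Mtm1-/y libraries 1, 2 and 4. The genotypes overlapped there only through WT 4 and Mtm1-/y 4.

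Arntl, the positive arm of the loop, went the other way in the same libraries. In gastrocnemius it was at 16.3, 20.8, 18.4 and 21.3 CPM in WT and at 14.97, 35.6, 19.3 and 6.97 CPM in Mtm1-/y. In the heart it was at 14.6, 18.1, 20.6 and 5.24 CPM in WT and at 13.1, 17.6, 38.6 and 26.6 CPM in Mtm1-/y. The 2 libraries with the highest Dbp in these tissues, Mtm1-/y gastrocnemius 4 and WT heart 4, were the 2 with the lowest Arntl.

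In the liver Arntl was at 24.1, 26.9 and 30.4 CPM in WT and at 24.1, 10.5, 39.0 and 31.6 CPM in Mtm1-/y, and Mtm1-/y 2 was again the library apart, now as the lowest. In the diaphragm it was at 21.5, 36.5, 29.4 and 25.8 CPM in WT and at 49.6, 27.04 and 30.02 CPM in Mtm1-/y. Mtm1-/y diaphragm 1 held the highest Arntl and the lowest Dbp of its tissue.

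**Figure D1:**
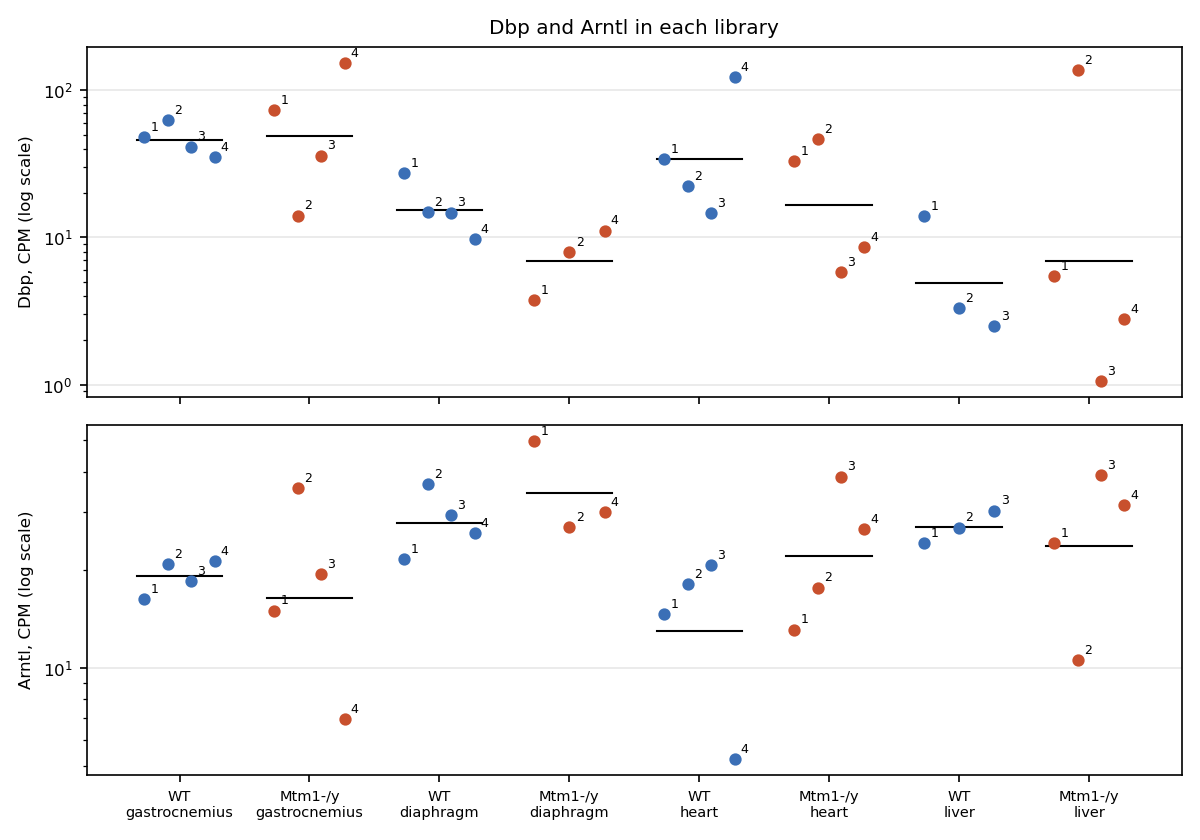
Dbp (top) and Arntl (bottom) in CPM on a log axis in each of the 30 libraries, by tissue and genotype (WT blue, Mtm1-/y red). Each point is a library with its replicate number and the bar is the geometric mean of the group. Mtm1-/y gastrocnemius 4 (Dbp 153 CPM, Arntl 6.97 CPM), WT heart 4 (122 and 5.24 CPM) and Mtm1-/y liver 2 (137 and 10.5 CPM) are high in the upper panel and low in the lower one.

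The log2 ratio of Dbp to Arntl puts both genes on 1 scale. It ranged from 0.73 to 1.58 in WT gastrocnemius and from −1.33 to 4.45 in Mtm1-/y gastrocnemius. In the heart it ranged from −0.49 to 4.53 in WT and from −2.72 to 1.41 in Mtm1-/y. The liver spanned −3.58 to −0.78 in WT and −5.12 to 3.69 in Mtm1-/y, the widest range of the 8 groups. In the diaphragm it ranged from −1.41 to 0.34 in WT and from −3.71 to −1.43 in Mtm1-/y and the genotypes did not overlap there, but the nearest libraries of each, at −1.41 and −1.43, were almost level.

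Most of the other members followed the same libraries. In Mtm1-/y liver 2 the REV-ERB gene Nr1d1 was at 256 CPM against 46.6 to 127 CPM in the other 6 livers, Tef at 331 against 44.4 to 116 CPM, and Per3 at 36.6 against 1.91 to 10.5 CPM. In WT heart 4 the PAR bZIP gene Hlf was at 88.7 CPM against 10.9 to 31.5 CPM in the other 7 hearts, the period gene Per2 at 40.2 against 2.52 to 14.8 CPM, and Ciart, which encodes a repressor of CLOCK and ARNTL, at 13.99 against 1.07 to 2.37 CPM. In Mtm1-/y gastrocnemius 4, Per3 was at 60.3 CPM against 12.1 to 37.9 CPM and Per2 at 25.01 against 3.93 to 13.7 CPM. The members named here for each of these 3 libraries are ones for which it was the highest of its tissue, and there were exceptions. Per2 in Mtm1-/y liver 2, at 18.2 CPM, lay below WT 1 (26.1 CPM) and Mtm1-/y 1 (20.2 CPM). Hlf in Mtm1-/y gastrocnemius 4, at 13.01 CPM, lay below WT 2 (18.1 CPM) and WT 3 (14.03 CPM). Cry1 was not the highest of its tissue in any of the 3.

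Within a group, the library with the lowest Arntl was the one with the highest Per2 in 7 of the 8 tissue and genotype groups. The same held in 6 groups for Hlf and Ciart, in 5 for Dbp, Nr1d1, Tef and Per3, in 4 for Nr1d2 and in 1 for Cry1. The highest Arntl coincided with the lowest Dbp and the lowest Per3 in 7 groups each. The period and PAR bZIP genes thus sat opposite to Arntl in most groups, while the cryptochrome gene Cry1 did not.

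**Figure D2:**
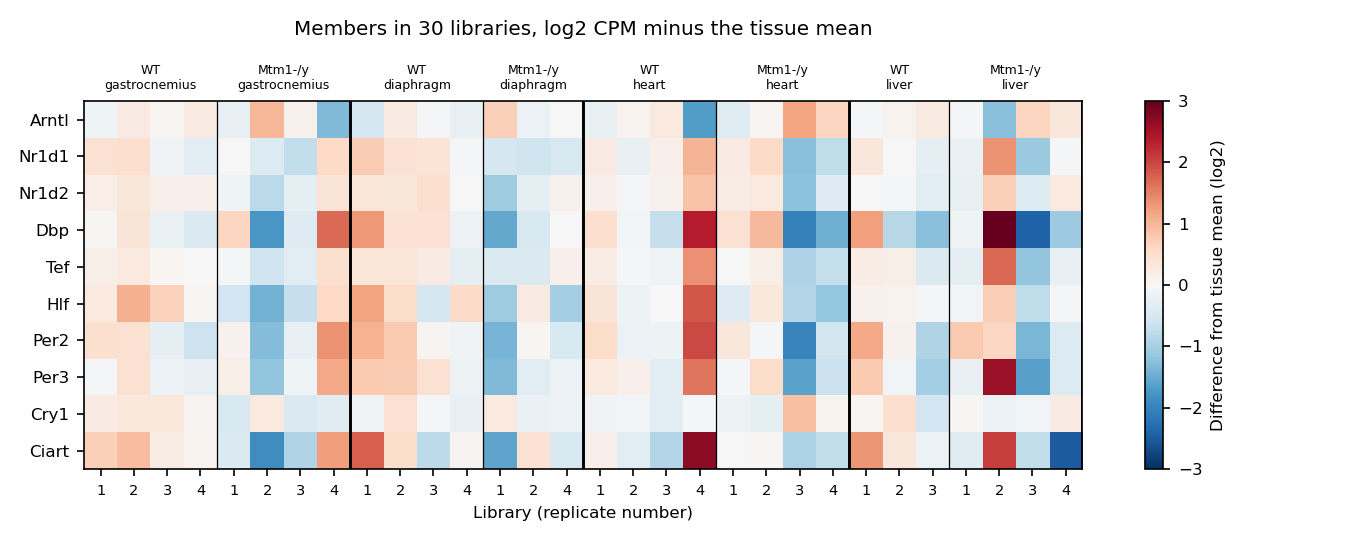
Log2 CPM of the 10 members (rows) minus their mean in the same tissue, in the 30 libraries (columns, with replicate numbers, grouped by tissue and genotype). Red is above and blue below the tissue mean, and the colours stop at a difference of 3. WT heart 4, Mtm1-/y gastrocnemius 4 and Mtm1-/y liver 2 are blue for Arntl and red for most other members, and Mtm1-/y heart 3 is red for Arntl and Cry1 and blue for the rest.

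The spread between libraries of a group was wider for the members than for the genes at large. The SD of log2 CPM, pooled over the genotypes of a tissue, had a median over the members of 0.68 for gastrocnemius, 0.47 for diaphragm, 0.80 for heart and 0.89 for liver. Over all genes tested its median was 0.19, 0.27, 0.20 and 0.24 in the same order. All 10 members exceeded the median gene in the gastrocnemius, the heart and the liver, and 9 did in the diaphragm. Above the 90% point of all genes lay 6, 1, 9 and 6 members. Dbp had an SD of 1.07 for gastrocnemius, 0.69 for diaphragm, 1.39 for heart and 2.48 for liver, whereas Cry1 stayed between 0.27 and 0.38. The pooled SD joins groups of unlike spread. For example, the SD of Arntl in gastrocnemius was 0.18 in WT and 0.97 in Mtm1-/y.

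Whether Arntl and the other members moved together across libraries was tested with the mean of each genotype removed, so that a genotype difference cannot make the relation. Of 36 relations (9 members in 4 tissues), 32 were negative, and the 4 positive ones were those of Cry1. In the heart (n = 8 libraries) Pearson's r with Arntl was −0.967 for Tef (exact permutation test within genotypes, two-sided, p = 0.0052, adjusted p = 0.042; Spearman's rho −0.976, p = 0.0052). It was −0.966 for Per2 (exact permutation p = 0.0035, adjusted p = 0.042; rho −0.952, p = 0.0052) and −0.934 for Dbp (exact permutation p = 0.0069, adjusted p = 0.042; rho −0.952, p = 0.0035). Ciart, Per3, Nr1d1 and Nr1d2 also passed in the heart, with r from −0.931 to −0.857, and Hlf did not (r = −0.867, exact permutation adjusted p = 0.074). Without the 2 libraries farthest from the median of Arntl, the 7 heart relations that passed had r between −0.980 and −0.853.

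In the liver (n = 7) Dbp (r = −0.977, rho −0.964) and Per3 (r = −0.962, rho −0.964) passed, each with an exact permutation p of 0.0069, the smallest that 144 permutations give, and an adjusted p of 0.042. Without the 2 farthest libraries their r was −0.851 and −0.747. In the gastrocnemius (n = 8) no relation passed, although r was −0.954 for Nr1d2 and −0.944 for Dbp. These rested on 2 libraries, Mtm1-/y 2 and 4, and r was −0.176 and −0.508 without them. In the diaphragm (n = 7) no relation passed either, and the negative r ranged from −0.707 for Ciart to −0.067 for Nr1d1. Adjustment was over the 36 relations. By Spearman's rho 8 passed, 6 in the heart and 2 in the liver. The number that passed was 16 without removal of the genotype mean and 17 without WT gastrocnemius 2. It was 6 without Mtm1-/y heart 1 or 2, and 0 without any 1 of the 7 livers, any 1 of the 4 WT hearts, or Mtm1-/y heart 3 or 4. Leaving out a library also leaves fewer permutations and so a larger smallest p.

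**Figure D3:**
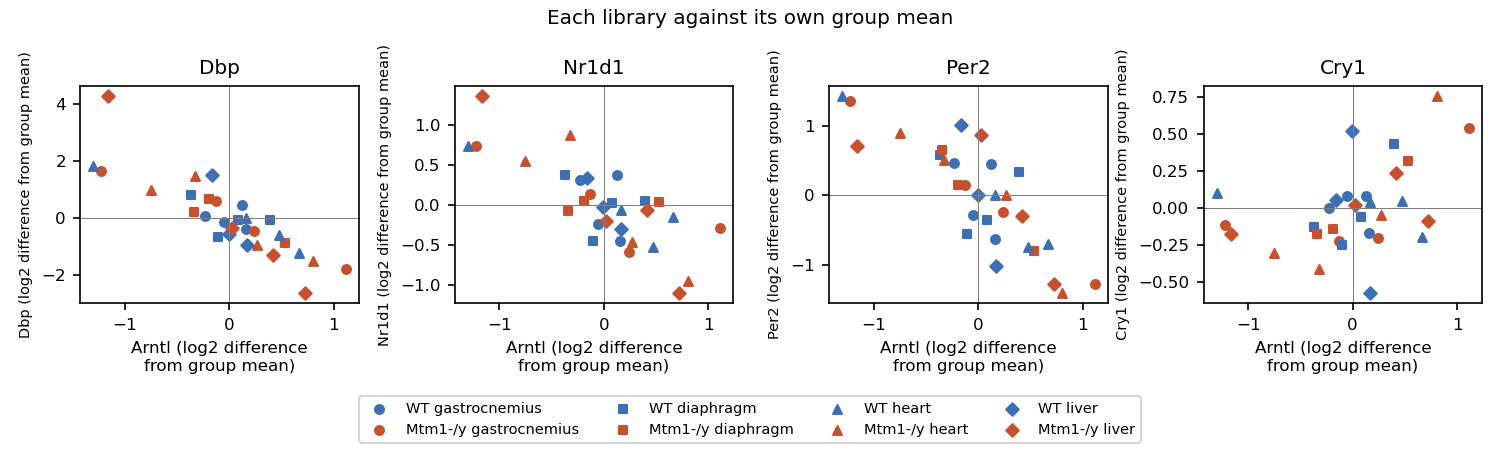
Dbp, Nr1d1, Per2 and Cry1 (vertical axes) against Arntl (horizontal axes) in the 30 libraries, each as log2 CPM minus the mean of its tissue and genotype group. Shape marks the tissue and colour the genotype. Dbp, Nr1d1 and Per2 lie lower where Arntl lies higher, and Cry1 does not.

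Libraries with the same replicate number did not keep 1 place in the order of the Dbp to Arntl ratio, but some came close. WT 1 was the highest or second of its group in all 4 tissues, and Mtm1-/y 3 had rank 3 of 4 in gastrocnemius and was the lowest in heart and liver. Others moved across the order. WT 4 was the lowest in gastrocnemius and diaphragm and the highest in heart. Mtm1-/y 4 was the highest in gastrocnemius and diaphragm and had rank 3 of 4 in heart and liver. Mtm1-/y 2 was the lowest in gastrocnemius and the highest in heart and liver. The labels do not say whether a number marks 1 mouse, and the orders were not tested.

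In the gastrocnemius no member passed edgeR's test of Mtm1-/y against WT, where 29.0% of all 15456 genes tested did. All 10 members were tested, 3 with higher and 7 with lower values in Mtm1-/y. The median log2 fold change over the members was −0.24 and that over all genes 0.02. Cry1 was at 14.6, 15.5, 15.5 and 13.03 CPM in WT and at 8.97, 15.2, 9.07 and 9.65 CPM in Mtm1-/y. Its 3 lower Mtm1-/y libraries lay below all WT libraries and Mtm1-/y 2 lay among them. The difference was −0.47 on the log2 scale with an SE of 0.17, at an adjusted p of 0.063 by edgeR and 0.042 by DESeq2, which called 25.7% of its genes. Hlf was at 10.6, 18.1, 14.03 and 8.87 CPM in WT and at 5.82, 3.20, 5.28 and 13.01 CPM in Mtm1-/y. Its difference was −0.94 on the log2 scale with an SE of 0.38 (adjusted p = 0.092). Again 3 Mtm1-/y libraries lay below the WT range and Mtm1-/y 4 within it. These were the 2 members with an unadjusted p under 0.05, which 41.6% of all genes had. In no member were the genotypes free of overlap, as they were in 30.6% of all genes. With an added threshold of 1 on the absolute log2 fold change no member passed either, and 6.63% of all genes did.

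The gastrocnemius result turned on single libraries. Without Mtm1-/y 4, the library with the high Dbp and low Arntl, 4 of 10 members fell, where 25.8% of all genes passed in the same fit: Nr1d2 (−0.60 on the log2 scale, SE 0.14, adjusted p = 0.016), Tef (−0.46, SE 0.13, adjusted p = 0.030), Hlf (−1.43, SE 0.28, adjusted p = 0.0066) and Ciart (−1.51, SE 0.34, adjusted p = 0.012). Dbp then changed sign, from 0.54 to −0.19, and so did Arntl, Per2 and Per3. Without Mtm1-/y 2, Cry1 fell (−0.68, SE 0.09, adjusted p = 0.0018), 1 member against 27.2% of all genes. For the 4 members that fell, Mtm1-/y 4 was the highest Mtm1-/y library, and for Cry1 it was Mtm1-/y 2. Leaving that library out lowers the Mtm1-/y value by construction, so these counts are no test. Macrophage markers were higher in Mtm1-/y gastrocnemius as a whole, with all 8 summing to 33.5 to 61.5 CPM in WT and 93.3 to 121 CPM in Mtm1-/y, and the 10 adipocyte markers to 1177 to 1468 and 1099 to 1467 CPM. Mtm1-/y 4 was within the range of the other Mtm1-/y libraries for macrophages (100.2 CPM) and at the upper end for adipocytes (1467 CPM). The 10 skeletal muscle markers were lower in Mtm1-/y, at 145802 to 162094 against 222681 to 266783 CPM in WT. So was the sum of the 10 heart muscle markers, at 1308 to 3263 against 7185 to 9107 CPM. Myh6, the first of that list, overlapped between the genotypes, at 88.2 to 380 CPM in WT and 51.6 to 225 CPM in Mtm1-/y. Of the 10, 2 or 3 had no reads in each WT library, and in this muscle the sum is no measure of heart cells. In the sums of the macrophage, skeletal muscle and heart muscle lists the genotypes did not overlap. The adipocyte sums did overlap, but Adipoq, the first gene of that list, did not. It was at 3.79 to 14.7 CPM in WT and 15.2 to 24.2 CPM in Mtm1-/y gastrocnemius. The part of these marker differences in the results was not tested. In bulk tissue, fewer cells of a type and less RNA per cell cannot be told apart.

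In the diaphragm no member passed edgeR's test either, where 2 of 16796 genes (0.0119%) did. Mtm1 was among these 2 (adjusted p = 0.027), so the test called very little there. The members lay lower in Mtm1-/y with 1 exception, Arntl, and their median log2 fold change was −0.97 against −0.01 over all genes. Nr1d1 was at 174, 139, 137 and 98.1 CPM in WT and at 72.5, 67.1 and 73.2 CPM in Mtm1-/y. All 3 Mtm1-/y libraries lay below all WT libraries, and the log2 fold change was −0.94 (SE 0.19, 95% interval −1.39 to −0.48, unadjusted p = 0.0018 and adjusted p = 0.27 by edgeR). DESeq2 called it (adjusted p = 0.0022), as it did 2.37% of its genes. Per3 was at 14.6, 14.4, 11.7 and 7.65 CPM in WT and at 3.32, 6.70 and 7.45 CPM in Mtm1-/y, a difference of −1.03 on the log2 scale with an SE of 0.35 (adjusted p = 0.38). It did not overlap either, but WT 4 and Mtm1-/y 4 were nearly level. These 2 of 10 members without overlap stand against 10.0% of all genes, and 2 members against 10.8% of all genes had an unadjusted p under 0.05.

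Dbp in the diaphragm differed by −1.11 on the log2 scale (SE 0.47, adjusted p = 0.47) and Per2 by −1.01 (SE 0.43, adjusted p = 0.47). Hlf followed with −1.04 (SE 0.50) and Ciart with −1.10 (SE 0.76), and Arntl had 0.34 (SE 0.25). Hepatocyte RNA differed between these libraries, and not by genotype. The 11 hepatocyte markers summed to 38367, 25826, 499 and 28739 CPM in WT and to 3215, 48613 and 823 CPM in Mtm1-/y, which overlap over the whole range. With the mean of these markers as a covariate, the log2 fold change of Nr1d1 was −0.94 (adjusted p = 0.10) and that of Per3 −1.04 (adjusted p = 0.24), nearly as without it. That of Hlf, which is most abundant in liver, went from −1.04 to −0.80 and that of Ciart from −1.10 to −0.69.

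In the heart no member passed edgeR's test, where 1 of 15238 genes (0.00656%) did. That gene was Mtm1 (adjusted p = 2.6e-05), so the test called nothing beyond the deleted gene. DESeq2 called 0 members and 0.453% of its genes. The median log2 fold change over the members was −0.84 and that over all genes −0.0016, with Arntl (0.70, SE 0.43) and Cry1 (0.34, SE 0.24) higher in Mtm1-/y and the other 8 lower. Hlf was at 31.5, 21.8, 23.9 and 88.7 CPM in WT and at 18.6, 30.2, 13.03 and 10.9 CPM in Mtm1-/y. Its difference by edgeR was −1.21 on the log2 scale with an SE of 0.50 (unadjusted p = 0.039, adjusted p = 0.55). It was the 1 member with an unadjusted p under 0.05, which 8.88% of genes had. The values of the heart rested largely on WT 4, which stood apart over all genes too. Its counts differed from those of the other WT hearts by a chi-square of 146 to 239 per degree of freedom, and those 3 from each other by 17.2 to 34.3. Without it the log2 fold change of Dbp went from −1.05 to −0.02, that of Ciart from −1.54 to −0.05, that of Per2 from −1.20 to −0.45 and that of Hlf to −0.51. No member was free of overlap between the genotypes, against 3.98% of genes. The adipocyte gene Adipoq was at 18.02, 5.90, 6.94 and 18.8 CPM in WT and at 1.42 to 2.72 CPM in Mtm1-/y heart, while all 10 adipocyte markers summed to 1141 to 1226 and 1206 to 1281 CPM. The skeletal actin Acta1 was at 1327 and 1244 CPM in Mtm1-/y hearts 3 and 4, the pair with the lowest Dbp, and at 160 to 649 CPM in the other 6 hearts. Their part in the result was not tested.

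In the liver no member passed by edgeR or DESeq2, and edgeR called 0 of 14305 genes (0%). Mtm1 itself did not pass there by edgeR (log2 fold change −1.60, SE 0.23, adjusted p = 0.37). The lack of calls in the liver therefore does not show that the members were unchanged. No member had an unadjusted p under 0.05, which 4.24% of genes had, and DESeq2 called 0.163% of its genes. The members were split 5 to 5 by direction with a median log2 fold change of 0.08 (0.0055 over all genes). Dbp had the widest interval, with an estimate of 2.41 on the log2 scale (SE 1.57, 95% interval −1.17 to 5.99, adjusted p = 0.97), and DESeq2 gave it no adjusted p. Without Mtm1-/y 2 that value was −1.13 (SE 0.75), and Nr1d1, Nr1d2, Tef, Per3 and Arntl also changed sign. The same library was low in macrophage markers, whose 8 genes summed to 44.9 CPM in it and to 148 to 224 CPM in the other 6 livers, and high in skeletal muscle markers (149 CPM against 9.73 to 46.6 CPM). Their part in the result was not tested. In no member were the genotypes free of overlap, against 6.05% of genes.

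**Figure D4:**
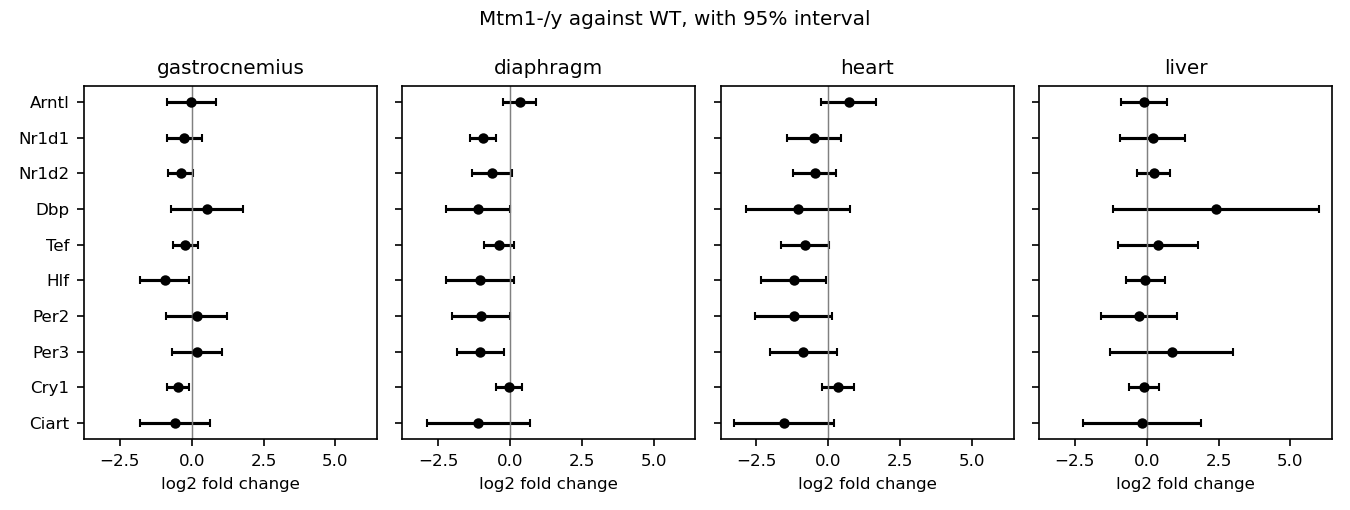
Log2 fold change of Mtm1-/y against WT (horizontal axes) for the 10 members in each tissue, from edgeR. Points are estimates and bars are 95% intervals. The diaphragm and heart estimates lie mostly below 0, and the liver interval of Dbp runs from −1.17 to 5.99.

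Averaged over the 4 tissues, no member passed edgeR's test, where 4.78% of 18498 genes did, and 1 had an unadjusted p under 0.05 (19.1% of genes). Hlf came nearest, with an average log2 fold change of −0.82 (SE 0.25, 95% interval −1.32 to −0.31, adjusted p = 0.055) and a DESeq2 adjusted p of 0.021, where DESeq2 called 9.48% of its genes. The libraries of 1 mouse, if any, entered this test as independent. Hlf passed when any 1 of 7 libraries was left out (adjusted p = 0.017 to 0.0497, with 3.79% to 8.84% of all genes called in those fits), among them Mtm1-/y gastrocnemius 4 and Mtm1-/y liver 2. Mtm1-/y gastrocnemius 4, diaphragm 2, heart 2 and liver 2 held the highest Hlf of their group. WT diaphragm 3 and WT heart 2 held the lowest of theirs, and WT heart 3 lay below its group mean. Leaving any of these out widens the difference by construction, so these passes are no test. Leaving out WT heart 4, the WT heart with the highest Hlf, narrows it in the same way. The average was then −0.64 and Hlf did not pass.

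The log2 ratio of Dbp to Arntl in each library was also entered as a covariate, in an alternative added after the data were seen. Over all genes, 27.6% (4265) then passed in the gastrocnemius in place of 29.0% (4479). In the diaphragm 0 passed in place of 2, the heart had 1 and the liver 0 with or without it. In the diaphragm the ratio did not overlap between the genotypes, so the covariate takes up part of the genotype difference there. The deleted gene Mtm1 was among the 2 genes lost.

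Whether the genotype difference itself varied between tissues was tested for the 6 pairs. No member passed in any of them, where edgeR called 0.280% of genes for gastrocnemius against diaphragm, 19.8% for gastrocnemius against heart, 6.34% for gastrocnemius against liver, 0.00573% for diaphragm against heart, and 0% for diaphragm and for heart against liver. Cry1 came nearest: its log2 fold change was 0.83 lower in the gastrocnemius than in the heart (95% interval of the difference −1.50 to −0.15, adjusted p = 0.077, DESeq2 adjusted p = 0.038). It passed edgeR's test without Mtm1-/y gastrocnemius 2 (adjusted p = 0.022) or without Mtm1-/y heart 2 (adjusted p = 0.039), where 19.4% and 21.6% of all genes passed. These libraries held the highest Cry1 of Mtm1-/y gastrocnemius and the lowest of Mtm1-/y heart, so leaving either out widens the difference by construction. At an unadjusted p under 0.05 there was 1 member in that pair (34.7% of genes) and 1, Nr1d2, for diaphragm against liver (5.12% of genes). There was none for gastrocnemius against diaphragm (12.8% of genes), gastrocnemius against liver (22.3%), diaphragm against heart (10.6%) and heart against liver (5.56%). DESeq2 called Cry1 alone, in gastrocnemius against heart (22.0% of its genes). Its shares in the other pairs were 2.04% for gastrocnemius against diaphragm, 11.9% for gastrocnemius against liver, 1.17% for diaphragm against heart, 0.0833% for diaphragm against liver and 2.27% for heart against liver. DESeq2 gave an adjusted p to all 10 members in the other 4 pairs, to 9 (not Dbp) for diaphragm against liver and to only 3 (Nr1d1, Nr1d2 and Tef) of 10 for heart against liver, so its count says little there.

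In WT mice the members differed in level between tissues. Per kilobase of exon, on which genes can be compared with each other, Nr1d1 was the highest member in all 4 tissues, at 58.0 ± 15.9 CPM per kb in gastrocnemius (SD, n = 4) and 33.3 ± 7.41 in liver (SD, n = 3), and Tef was second with 44.2 ± 4.22 and 12.9 ± 2.99. Among the lowest were Per2 in gastrocnemius (1.77 ± 0.64) and Ciart in diaphragm (0.65 ± 0.52).

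The PAR bZIP genes did not share a tissue order. Tef was at 348 ± 33.2 CPM (SD, n = 4) in gastrocnemius and passed against the next tissue, the heart, at 150 ± 83.1 CPM (adjusted p = 0.0019), while heart, diaphragm (113 ± 21.5 CPM) and liver (101 ± 23.6 CPM, n = 3) did not pass between neighbours. Hlf was highest in liver (66.1 ± 4.69 CPM), did not pass against the heart (41.5 ± 31.8 CPM, adjusted p = 0.20), and was higher in heart than in gastrocnemius (12.9 ± 4.09 CPM, adjusted p = 0.0052), which did not pass against diaphragm (11.8 ± 5.28 CPM). The diaphragm level comes with hepatocyte RNA. Hlf was at 5.51 CPM in WT diaphragm 3, where the hepatocyte markers summed to 499 CPM. It was at 11.6 CPM or more in the other WT diaphragms, where they summed to 25826 CPM or more. The part of hepatocyte RNA in the diaphragm levels of the members was not tested. Dbp ran from 48.4 ± 49.9 CPM in heart over 46.8 ± 11.6 in gastrocnemius and 16.6 ± 7.48 in diaphragm to 6.61 ± 6.43 in liver, and no pair of neighbours passed by edgeR (adjusted p = 0.054 or more). DESeq2 called Dbp for gastrocnemius against diaphragm (adjusted p = 0.045).

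Among the repressors, Nr1d2 stood at 123 ± 7.97 CPM in gastrocnemius, 101 ± 31.0 in heart, 76.8 ± 10.6 in diaphragm and 56.7 ± 6.77 in liver, and only diaphragm against liver passed between neighbours by edgeR (adjusted p = 0.048). DESeq2 did not call that pair of Nr1d2 (adjusted p = 0.089) but called heart against diaphragm (adjusted p = 0.042). Nr1d1 had the same order, from 178 ± 48.9 CPM in gastrocnemius to 102 ± 22.8 in liver, with no neighbours that passed. Cry1 was at 14.7 ± 5.37 CPM in liver, 14.6 ± 1.15 in gastrocnemius and 13.5 ± 3.02 in diaphragm, none of which passed against its neighbour, and was lower, at 6.65 ± 0.59 CPM, in heart (adjusted p = 6e-04 against diaphragm). Per3 passed between heart (26.9 ± 17.8 CPM) and diaphragm (12.1 ± 3.23 CPM, adjusted p = 0.029), but neither between gastrocnemius (28.0 ± 6.77 CPM) and heart nor between diaphragm and liver (6.39 ± 3.78 CPM). Per2, Ciart and Arntl had no neighbours that passed by edgeR, with Per2 at 9.59 to 18.2 CPM, Ciart at 1.46 to 7.11 CPM and Arntl at 14.6 to 28.3 CPM by tissue mean. DESeq2 called Ciart between heart and diaphragm (adjusted p = 0.026). Some tissues farther apart in the order did pass. Dbp was higher in gastrocnemius and heart than in liver (adjusted p = 0.0032 and 0.0033), and Nr1d1 higher in gastrocnemius than in liver (adjusted p = 0.018). Arntl was lower in heart than in diaphragm and liver (adjusted p = 0.017 and 0.020). Ciart was lower in diaphragm than in gastrocnemius and liver (adjusted p = 0.046 and 0.017). Per2 passed in no pair.

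Over the 6 tissue pairs 25 calls were made. For gastrocnemius against diaphragm 4 members passed (54.4% of all genes did), against heart 3 (61.3%) and against liver 6 (79.5%). For diaphragm against heart 4 members passed (51.7%), for diaphragm against liver 3 (76.1%) and for heart against liver 5 (76.4%). Each share lay below that of all genes. By DESeq2 5, 3, 6, 7, 2 and 5 members passed in the same order of pairs, and its share of all genes was not counted. WT heart 4 widened the SD of the heart in most members, and without it 34 calls were made. The share of all genes was not counted in that fit.

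**Figure D5:**
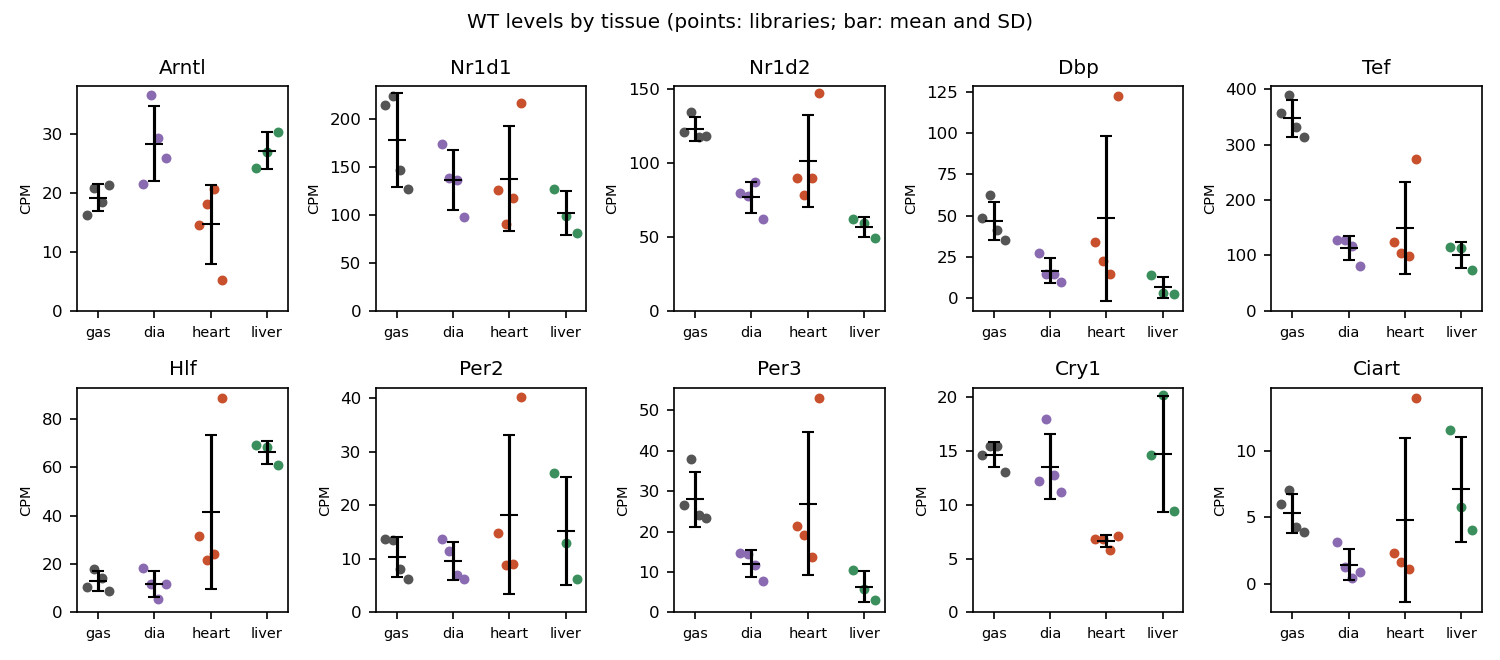
CPM of the 10 members in the WT libraries of gastrocnemius (gas), diaphragm (dia), heart and liver. Points are libraries and bars the mean and SD. Tef is highest in gastrocnemius (348 CPM) and Hlf in liver (66.1 CPM), Cry1 is lowest in heart (6.65 CPM), and WT heart 4 is the separate heart point in most panels.

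A list of 20 other genes of the clock loop was read beside the members. In the gastrocnemius 18 were tested, 5 fell and 0 rose (median log2 fold change −0.21), a share near the 29.0% of all genes that passed there in either direction. Rora, the nuclear receptor that activates Arntl, fell from 110 ± 6.79 to 83.3 ± 4.34 CPM, means with SD over 4 libraries each (−0.41 on the log2 scale, SE 0.07, adjusted p = 0.0019). Noct, a rhythmic phosphatase of nicotinamide cofactors, fell from 93.8 ± 26.9 to 46.3 ± 7.76 CPM (−1.04, SE 0.19, adjusted p = 0.0035). Usp2, a deubiquitinase, fell by 0.62 (SE 0.17, adjusted p = 0.021) and the casein kinase gene Csnk1e, whose product marks PER proteins for decay, by 0.34 (SE 0.10, adjusted p = 0.025) on the log2 scale. In diaphragm, heart and liver alike 0 of 19 tested passed by edgeR, with 1, 0 and 1 at an unadjusted p under 0.05 (10.8%, 8.88% and 4.24% of all genes) and 1, 0 and 0 by DESeq2 (2.37%, 0.453% and 0.163%). The 1 DESeq2 call, named after its value was seen, was Npas2 in the diaphragm (1.09 on the log2 scale, SE 0.31, DESeq2 adjusted p = 0.043). The 2 most abundant, Usp2 and Per1, had log2 fold changes of −0.04 (SE 0.28) and −0.07 (SE 0.10) in the diaphragm and of −0.23 (SE 0.25) and −0.31 (SE 0.15) in the heart. In the liver the 2 most abundant, Csnk1d and Bhlhe40, had 0.0088 (SE 0.09) and 0.27 (SE 0.27).

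Of 15 known rhythmic output genes 14 were tested in the gastrocnemius, where 5 rose and 2 fell (29.0% of all genes passed). Tspo, a cholesterol-binding protein of the outer mitochondrial membrane, rose from 22.1 ± 3.22 to 70.2 ± 16.9 CPM (1.65 on the log2 scale, SE 0.17, adjusted p = 0.00023), and the cold-inducible RNA-binding protein gene Cirbp rose (0.48, SE 0.12, adjusted p = 0.013). Ppara, a nuclear receptor of fat oxidation, fell (−0.90, SE 0.13, adjusted p = 0.0011), as did Alas1, the first enzyme of haem synthesis (−0.49, SE 0.09, adjusted p = 0.0036). In the diaphragm, heart and liver 0 of 15, 14 and 13 passed by edgeR, with 1, 2 and 4 at an unadjusted p under 0.05 (10.8%, 8.88% and 4.24% of all genes) and 1, 1 and 0 by DESeq2 (2.37%, 0.453% and 0.163%). The DESeq2 call in the heart, named after its value was seen, was Pck1, the gluconeogenic enzyme gene, at −2.33 on the log2 scale (SE 0.39, edgeR adjusted p = 0.35, DESeq2 adjusted p = 4.2e-07). In the gastrocnemius Pck1 was among those that rose (1.06, SE 0.29, adjusted p = 0.023), and the difference between these tissues was not tested. The most abundant in the other tissues were Pdk4 (0.18, SE 0.33) and Tcap (−0.71, SE 0.20, DESeq2 adjusted p = 0.011) in the diaphragm, Tcap (−0.72, SE 0.37) and Pdk4 (−0.56, SE 0.42) in the heart, and Pck1 (−0.44, SE 0.12) and Alas1 (0.43, SE 0.67) in the liver.

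Glucocorticoids also follow a daily rhythm and set peripheral clocks, so 10 of their target genes were read beside the members. In the gastrocnemius the metallothionein gene Mt2 rose from 26.4 ± 11.3 to 163 ± 64.5 CPM (2.61 on the log2 scale, SE 0.36, adjusted p = 0.00085) and the Krüppel-like factor gene Klf9 fell from 265 ± 9.25 to 197 ± 31.6 CPM (−0.45, SE 0.11, adjusted p = 0.011), and the other 8 did not pass (29.0% of all genes did). Among those tested, 0 of 10 in diaphragm, 0 of 10 in heart and 0 of 9 in liver passed by edgeR, with 2, 4 and 1 at an unadjusted p under 0.05 (10.8%, 8.88% and 4.24% of all genes) and 1, 1 and 0 by DESeq2 (2.37%, 0.453% and 0.163%). The heart call was Mt2, also named after its value was seen, at −1.39 on the log2 scale (SE 0.37, edgeR adjusted p = 0.55, DESeq2 adjusted p = 0.023), opposite in sign to the gastrocnemius, and that difference was not tested. Tsc22d3, which encodes the anti-inflammatory protein GILZ, had log2 fold changes of −0.38 (SE 0.12, DESeq2 adjusted p = 0.037) in the diaphragm, −0.39 (SE 0.11) in the heart and −0.46 (SE 0.27) in the liver. The other abundant ones were Errfi1 in diaphragm (−0.11, SE 0.66) and liver (−0.17, SE 0.20) and Klf9 in heart (−0.19, SE 0.13). Averaged over the 4 tissues, Tsc22d3 fell by 0.39 (SE 0.09, adjusted p = 0.016), Rora by 0.22 (SE 0.06, adjusted p = 0.028), Csnk1e by 0.22 (SE 0.05, adjusted p = 0.010) and Ppara by 0.52 (SE 0.15, adjusted p = 0.048) on the log2 scale. These 4 were those that passed for the average among the 20, 15 and 10 genes of the lists, where 4.78% of all genes did.

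The genes most like the members were looked for over the 30 libraries, as the Pearson correlation of log2 CPM minus the group mean among the 10940 genes that averaged 1 CPM or more in each tissue. Libraries share depth and tissue handling, so these values are descriptions. Nearest to Dbp were the members Per3 (r = 0.975), Tef (0.947) and Nr1d1 (0.892), and outside the members the cryptochrome gene Cry2 (0.899), Usp2 (0.872), Tcap, which encodes the sarcomere protein telethonin (0.871), the clock repressor gene Bhlhe41 (0.843) and Fam214a (0.843). These values did not hold evenly over the tissues. In the diaphragm alone r was 0.75 for Cry2, 0.46 for Usp2, 0.12 for Tcap, 0.20 for Bhlhe41 and 0.40 for Fam214a, against 0.92 to 0.98 in the liver. In the liver Tcap rests on few reads, with 2 to 12 reads in 6 libraries and 142 in Mtm1-/y 2, the library with the high skeletal muscle markers. Nearest to Arntl were Clock, its partner (0.870), Leo1, which encodes a subunit of the PAF1 transcription complex (0.861), Nfil3, a repressor at D-boxes (0.826), Gimap6 (0.814) and Npas2, a paralogue of Clock (0.784), with r in single tissues between 0.66 and 0.98. Dbp and Arntl had an r of −0.865 with each other, and Cry1 an r of −0.321 with Dbp and 0.426 with Arntl.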

How the data were processed

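The authors prepared stranded libraries of poly(A) RNA and sequenced single reads of 50 bases. Reads were trimmed with cutadapt 1.10, aligned to mm10 with STAR 2.5.3a and counted per gene with HTSeq 0.6.1p1 on Ensembl release 96, keeping unambiguous reads. The deposited values are these raw counts, without normalization. Symbols were matched for all 36103 identifiers. The re-analysis used R 4.3.3. For every tissue, low genes were removed by filterByExpr (count minimum 10), TMM factors were set, and the quasi-likelihood test of edgeR 4.0.16 was run with p-values adjusted by Benjamini-Hochberg across the genes kept. A gene passed at an adjusted p under 0.05. Adjusted p-values are those of edgeR unless DESeq2 1.42.0 or limma 3.58.1 is named. Log2 CPM used a prior count of 2. The alternatives were DESeq2, its size factors, no filter, limma voom with sample weights, all 30 libraries in 1 fit, a fold change threshold, the replicate block, hepatocyte markers as a covariate and each library left out in turn.

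All 10 members are named. Of the other lists up to 4 genes per tissue that passed, by smallest p, are named, or the 2 most abundant, and of each marker list its first gene. The nearest genes are the 5 with the highest correlation. The members and lists were chosen with earlier results of these data known. No pair of replicates was as close as counting error allows, so none was merged. Gene coordinates are those of the GENCODE M21 annotation.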

Additional observations from a re-analysis of the deposited data

Results flagged for a closer look

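Cry1 in Mtm1-/y gastrocnemius was marked because 1 library lay far from the other 3. Mtm1-/y 2 was at 15.2 CPM and the nearest of the others at 9.65 CPM, a gap of 0.862 of the group's whole range on the log2 scale. Chance marks about 1 in 20 groups, and this was 1 of 60 groups looked at.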

How the results depend on the processing

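Each member had at least 13 reads in each library, and groups held 3 or 4 libraries. The count of members that passed was 0 by edgeR in each tissue, of the average and of each tissue pair. In the gastrocnemius it was 1 by DESeq2, 2 by limma voom with sample weights (Hlf and Cry1) and 0 to 4 with 1 library left out. The share of all genes was not counted for limma voom, so its 2 calls cannot be set against one. In the diaphragm it was 1 by DESeq2, and for diaphragm, heart and liver alike 0 to 0 with 1 library left out. For the average it was 1 by DESeq2, 0 to 1 with 1 library left out, and 3 (6.46% of all genes) without WT heart 4, Mtm1-/y gastrocnemius 4 and Mtm1-/y liver 2. These 3 libraries were picked for their high Dbp after it was seen and 2 of them are Mtm1-/y, so a lower Mtm1-/y value is built in and that count is no test. For gastrocnemius against heart it was 1 by DESeq2 and 0 to 1 with 1 library left out, and 0 to 0 for the other 5 tissue pairs. WT tissue pairs gave 25 calls, and 21 to 34 with 1 library left out, where the share of all genes was not counted. Relations with Arntl that passed numbered 9, and 16 without removal of the genotype mean, 11 with DESeq2 size factors and 0 to 17 with 1 library left out. The 17 were reached without WT gastrocnemius 2. The causes of these shifts were not tested. Over all genes edgeR and DESeq2 called respectively 2 and 438 for diaphragm, 1 and 85 for heart, 0 and 25 for liver, 885 and 1671 for the average. For the tissue pairs they called 49 and 376 (gastrocnemius against diaphragm), 1090 and 1925 (gastrocnemius against liver), 1 and 217 (diaphragm against heart), 0 and 15 (diaphragm against liver) and 0 and 69 (heart against liver). With the fold threshold edgeR called 1024 in place of 4479 in the gastrocnemius.

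Replicate numbers were not taken as pairs of libraries. Within a tissue, equal numbers join a WT and an Mtm1-/y library, so the check below cannot show whether a number marks 1 mouse. Of 14 pairs of equal number within a tissue 5 correlated above 0.1 (range −0.716 to 0.527), and 5 correlated best with their own number. With the replicate block 1 member passed in the gastrocnemius (Cry1, log2 fold change −0.50, adjusted p = 0.040) and 0 in each other genotype test, and 24 calls were made between WT tissues. The share of all genes was not counted with the block, so these counts have none beside them. Some log2 fold changes turned sign with the block, none of which had passed: Per2 in gastrocnemius (−0.036), Nr1d1 in liver (−0.042), the average of Dbp (−0.36), Hlf (−0.045) and Ciart (−0.20) for gastrocnemius against heart, and Hlf (−0.38), Per2 (−0.052) and Ciart (−0.59) for diaphragm against heart.

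With limma voom the sign turned for Per2 (−0.084) and Per3 (−0.056) in gastrocnemius, for Cry1 in diaphragm (0.079), and for Nr1d1 (−0.29), Dbp (−0.34), Tef (−0.36) and Per3 (−0.38) in liver. The average of Per3 was 0.069 without the diaphragm, and that of Dbp −0.63 without those 3 libraries. The remaining values of single members kept their sign under the alternatives that leave no single library out.

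With 1 library left out, these log2 values took both signs, and none of them had passed with all libraries. For gastrocnemius the values ran over Arntl −0.49 to 0.27, Dbp −0.19 to 0.89, Per2 −0.45 to 0.48 and Per3 −0.30 to 0.46. For diaphragm the values ran over Cry1 −0.19 to 0.13. For liver the values ran over Arntl −0.33 to 0.16, Nr1d1 −0.46 to 0.48, Nr1d2 −0.0068 to 0.39, Dbp −1.13 to 3.62, Tef −0.56 to 0.69, Hlf −0.37 to 0.15, Per2 −0.62 to 0.40, Per3 −0.76 to 1.44, Cry1 −0.32 to 0.19 and Ciart −1.67 to 0.39. For the average the values ran over Dbp −0.70 to 0.49 and Cry1 −0.15 to 0.0029. For gastrocnemius against diaphragm the values ran over Nr1d2 −0.016 to 0.56, Tef −0.058 to 0.41, Hlf −0.39 to 0.71 and Ciart −0.40 to 1.16. For gastrocnemius against heart the values ran over Nr1d1 −0.066 to 0.57, Nr1d2 −0.15 to 0.28, Hlf −0.43 to 0.62 and Ciart −0.53 to 1.27. For gastrocnemius against liver the values ran over Arntl −0.42 to 0.33, Nr1d1 −0.78 to 0.18, Dbp −3.10 to 1.68, Tef −0.94 to 0.31, Per2 −0.24 to 0.78, Per3 −1.28 to 0.92 and Ciart −1.39 to 1.07. For diaphragm against heart the values ran over Nr1d2 −0.48 to 0.12, Dbp −1.10 to 0.51, Tef −0.067 to 0.60, Hlf −0.54 to 0.51, Per2 −0.56 to 0.51, Per3 −0.75 to 0.23 and Ciart −1.06 to 1.12. For diaphragm against liver the values ran over Tef −1.12 to 0.12, Cry1 −0.28 to 0.23 and Ciart −1.63 to 0.49. For heart against liver the values ran over Dbp −4.66 to 0.11 and Ciart −1.92 to 0.12.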
